A study of Arabidopsis thaliana with 6 samples.

Results

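The peaks described here lie in the pericentromeres of the 5 chromosomes of Arabidopsis thaliana, and come from the 3 deposited peak lists of a chromatin immunoprecipitation sequencing (ChIP-seq) study of AtDEK3. A peak belonged to this set when its midpoint lay in a fixed TAIR10 window around the centromere of its chromosome. The windows ran from 12 to 18 Mb on chromosome 1, from 1.5 to 6.5 Mb on chromosome 2, from 11 to 16.5 Mb on chromosome 3, from 2 to 5.5 Mb on chromosome 4 and from 9.5 to 15 Mb on chromosome 5. Of 12491 distinct peaks in the 3 lists, 1600 lay in the windows and 10891 lay in the rest of the chromosomes. The windows held 278 of 5332 peaks in line OE3-1, 682 of 3733 in line OE9-1 and 640 of 3426 in line OE17-4.

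All plants were Col-0 seedlings that overexpress AtDEK3, a member of the DEK family of chromatin proteins, with a cyan fluorescent protein (CFP) tag. They grew for 14 days on soil under 16 h of light and 8 h of dark. Nuclear chromatin was precipitated with an antibody against green fluorescent protein (GFP) and read as 36 bp single-end reads, with 1 library for each of 3 independent overexpressor lines. The 3 inputs of the same lines were not analysed here, and the labels name no library from plants without the transgene. Each line is therefore 1 sample of the same group, and the comparison possible within each list is the windows against the rest of the same 5 chromosomes. The total number of reads per library is unknown, so reads per peak are compared within a list only.

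Pericentromeres flank the centromere and consist mostly of condensed heterochromatin, in which transposable elements are dense, genes are sparse and DNA methylation keeps most elements silent. DEK proteins bind DNA and histones and are found across eukaryotic nuclei, where they take part in chromatin organisation and transcription. In Col-0 the pericentromere of chromosome 2 also carries a large insertion of mitochondrial DNA, a nuclear copy of much of the organelle genome.

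The windows had the gene content of pericentromeres in the RefSeq gene table of this species (TAIR10.1). They covered 25.5 Mb, or 21.4% of the length of the 5 chromosomes, and held 2275 protein-coding genes, or 89.2 per Mb, against 25169 and 269 per Mb in the rest. Pseudogenes, the biotype under which this table also lists transposable element genes, numbered 3440 in the windows, or 135 per Mb, against 1403 and 15.0 per Mb in the rest. The lowest density of protein-coding genes among the windows was that of chromosome 4 (68.6 per Mb) and the highest that of chromosome 1 (105.5 per Mb).

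The windows held fewer peaks per Mb than the rest of the chromosomes in each of the 3 lines, and OE3-1 stood apart from the other two lines in how few. In OE3-1 the windows held 10.9 peaks per Mb, against 54.0 per Mb in the rest. In OE9-1 the densities were 26.7 per Mb in the windows and 32.6 per Mb in the rest, and in OE17-4 they were 25.1 per Mb and 29.8 per Mb. The share of all peaks that lay in the windows was 5.21% in OE3-1 (exact 95% interval 4.63 to 5.84%), 18.3% in OE9-1 (17.0 to 19.5%) and 18.7% in OE17-4 (17.4 to 20.0%). These intervals, like all others given here, cover counting error only. The log2 ratio of density in the windows over the rest was -2.31, -0.28 and -0.25 in OE3-1, OE9-1 and OE17-4, with a mean of -0.95 ± 1.18 (SD, n = 3 lines). An exact 2-sided sign-flip permutation test over the lines gave p = 0.25, the smallest value that 3 lines allow, so no comparison over lines here can pass 0.05. Without OE3-1 the mean ratio was -0.27. The direction in OE9-1 was not the same at each limit of the authors' Wilcoxon filter p-value. At a common limit of 9.99e-05, which kept 471 OE9-1 peaks, 23.4% of these lay in the windows, against 21.4% of chromosome length. Whether this excess lies beyond counting error was not tested. Under that limit the mean ratio over lines was -0.75 (exact sign-flip permutation p = 0.5).

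Chromosome by chromosome, the density was lower in the window than in the rest in each of the 3 lines, though not always beyond counting error. In OE3-1 the windows of chromosomes 1 to 5 held 97, 43, 39, 25 and 74 peaks. The density in the window was 0.304 times that of the rest on chromosome 1 and 0.121 times on chromosome 3, the highest and the lowest of this line. In OE9-1 the windows of chromosomes 1 to 5 held 156, 157, 150, 69 and 150 peaks, and the ratio of densities lay between 0.579 on chromosome 4 and 0.892 on chromosome 3. In OE17-4 the counts were 127, 137, 146, 84 and 146, with ratios between 0.750 on chromosome 4 and 0.952 on chromosome 5. The exact 95% Poisson interval of the window density included the density of the rest on chromosomes 2 and 3 in OE9-1 and on chromosomes 2, 3 and 5 in OE17-4. Chromosome 4, with the fewest protein-coding genes per Mb, had the lowest ratio in OE9-1 and OE17-4, and the second lowest in OE3-1 (0.137). In OE9-1 and OE17-4 the other chromosomes did not keep to the order of gene density. Chromosome 3, with the second fewest genes (76 per Mb), had ratios of 0.892 and 0.867 in these lines. Chromosome 1, with the most genes per Mb, had 0.846 and 0.758.

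**Figure D1:**
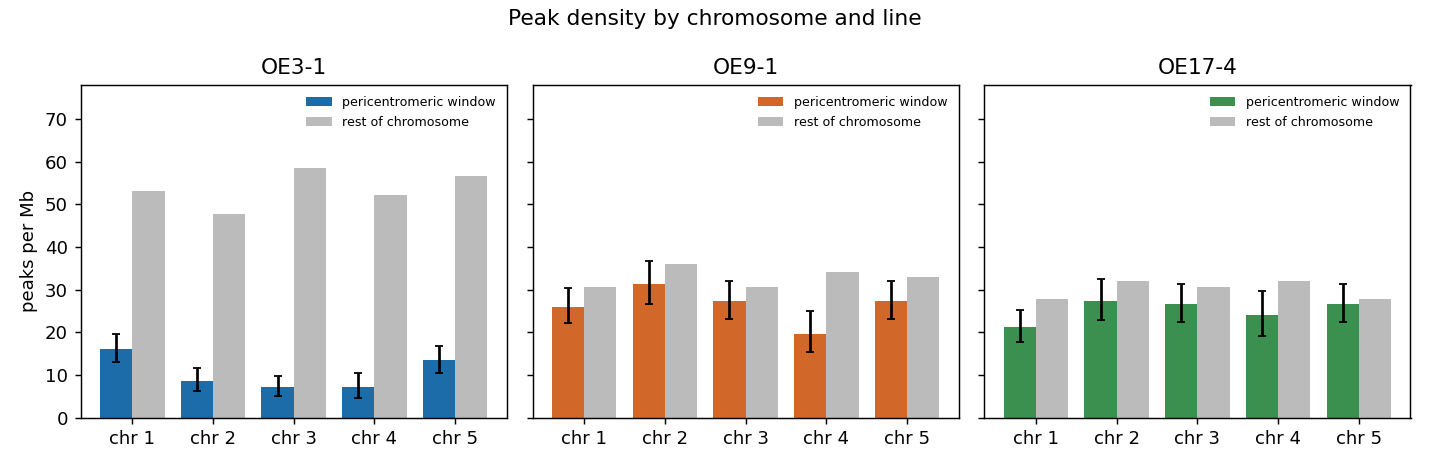
Peaks per Mb in the pericentromeric window (coloured bars, with exact 95% Poisson intervals) and in the rest of the same chromosome (grey bars) for each line. OE3-1 has 7.09 to 16.2 peaks per Mb in the windows, far under its rest, while the windows of OE9-1 and OE17-4 come closer to theirs.

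Along the windows, the 3 lines followed gene density in different ways. In 51 bins of 0.5 Mb, the number of OE3-1 peaks ranged from 0 to 24, and 7 bins held none. Peak number and the number of protein-coding genes per bin had a Spearman correlation of 0.80 in OE3-1, 0.69 in OE9-1 and -0.0047 in OE17-4. Against pseudogenes per bin, the same measure was -0.71, -0.48 and 0.25. These are descriptions over bins of 1 library each, and the 3 lines share the same bins and gene counts. The 17 bins with the fewest protein-coding genes (2 to 21 each) held 17 OE3-1 peaks, 135 OE9-1 peaks and 208 OE17-4 peaks. The 17 bins with the most (58 to 113 each) held 177, 296 and 211. They include the bin at 3 to 3.5 Mb of chromosome 2, which overlaps the window of the mitochondrial insertion. It has 102 protein-coding genes and held 4, 24 and 15 peaks. OE17-4 thus had nearly the same number of peaks in gene-poor and gene-rich stretches of the windows, whereas OE3-1 had few in the gene-poor ones. The longest stretch of a window without an OE3-1 peak was 1304 kb, against 420 kb in OE9-1 and 419 kb in OE17-4.

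**Figure D2:**
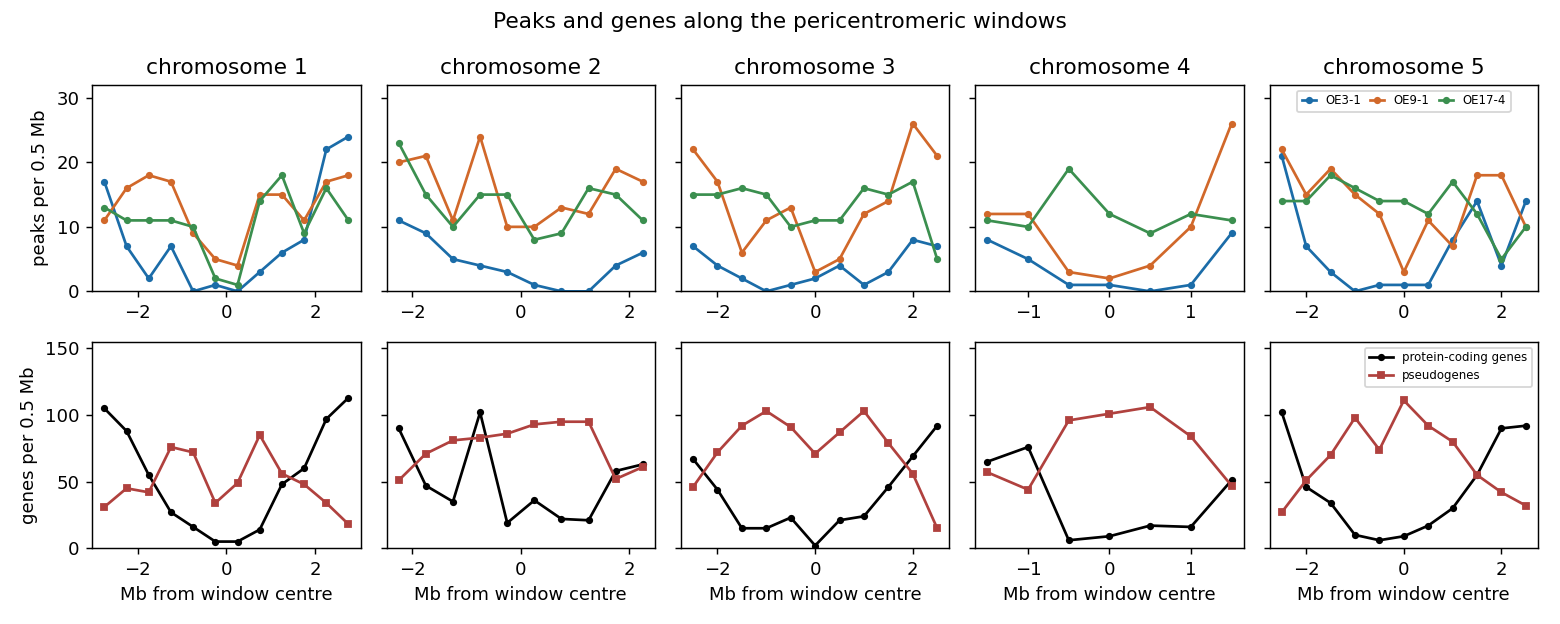
Peaks per 0.5 Mb (upper row, one line for each overexpressor line) and genes per 0.5 Mb (lower row) along the 5 windows, plotted by distance in Mb from the centre of the window. OE3-1 peaks gather at the window edges together with the protein-coding genes, and 7 of its 51 bins are at 0; the lowest bin holds 2 peaks in OE9-1 and 1 in OE17-4.

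What lay under the peak midpoints differed between the windows and the rest in all 3 lines. In OE3-1, 79.9% of window peaks lay in protein-coding genes, against 90.8% in the rest. In OE9-1 the shares were 14.1% in the windows and 42.6% in the rest, and in OE17-4 they were 28.6% and 84.9%. The share in pseudogenes was higher in the windows: 8.27% against 1.09% in OE3-1, 8.21% against 0.885% in OE9-1 and 39.8% against 2.87% in OE17-4. Sequence over 1 kb from a protein-coding gene and outside annotated genes, called distal here, held 5.04% of window peaks against 1.46% of the rest in OE3-1. It held 54.3% against 20.1% in OE9-1 and 23.9% against 3.95% in OE17-4.

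Over the 3 lines, the share in protein-coding genes differed by -31.9 ± 22.8 percentage points (windows minus rest, SD, n = 3, exact sign-flip permutation p = 0.25). The share in pseudogenes differed by 17.2 ± 17.2 points and that in distal sequence by 19.2 ± 15.3 points, each with an exact sign-flip permutation p of 0.25 and the same direction in 3 of 3 lines. Without OE17-4, the mean difference was -19.7 points for protein-coding genes and 7.26 points for pseudogenes. The windows themselves differ from the rest in the same respect. Protein-coding genes make up 18.1% of the bases of the windows and 63.9% of the rest, pseudogenes 30.7% and 2.70%, and distal sequence 39.1% and 10.8%.

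Counted per Mb of each class, the windows and the rest were close to each other in OE9-1 and OE17-4 for protein-coding genes, and in OE17-4 for pseudogenes. Protein-coding sequence held 39.7 OE17-4 peaks per Mb in the windows and 39.5 per Mb in the rest, and 20.8 OE9-1 peaks per Mb in the windows against 21.7 per Mb in the rest. In OE3-1 the same densities were 48.2 per Mb in the windows and 76.7 per Mb in the rest. Pseudogene sequence held 32.6 OE17-4 peaks per Mb in the windows and 31.7 per Mb in the rest. For OE9-1 these values were 7.16 and 10.7 per Mb, and for OE3-1 they were 2.94 and 21.8 per Mb. The mean log2 ratio for protein-coding sequence was -0.24 ± 0.37 (SD, n = 3 lines, exact sign-flip permutation p = 0.5). For pseudogene sequence it was -1.14 ± 1.54 with the same exact p of 0.5, and the 3 lines did not share a direction in either class.

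Sequence within 1 kb of a protein-coding gene held 55.1 OE9-1 peaks per Mb in the windows and 53.6 per Mb in the rest, more than the protein-coding genes themselves in both. There OE17-4 had 11.7 peaks per Mb in the windows and 9.71 in the rest, and OE3-1 had 3.91 and 13.5. In distal sequence OE9-1 had 37.1 peaks per Mb in the windows against 60.8 per Mb in the rest. OE3-1 had 1.40 per Mb against 7.33 per Mb, in the same direction. OE17-4 had 15.3 per Mb in the windows against 10.9 per Mb in the rest, in the other direction. The class with the most window peaks was thus the same on each of the 5 chromosomes within OE3-1 (protein-coding genes, 66.7 to 84.0%) and within OE9-1 (distal sequence, 50.0 to 58.0%). In OE17-4 it was pseudogenes on chromosomes 2, 3, 4 and 5 (38.4 to 47.6%) and protein-coding genes on chromosome 1 (36.2%, with 29.1% in pseudogenes).

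**Figure D3:**
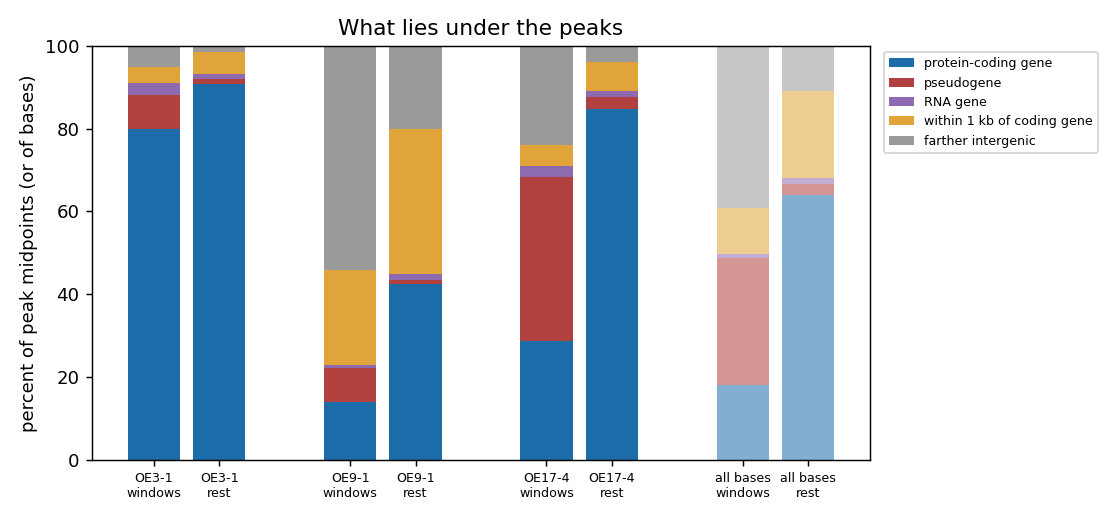
Percent of peak midpoints in each class of sequence, for the windows (left bar of each pair) and the rest (right bar), beside the percent of all bases in each class (pale bars). In OE17-4 the pseudogene share is 39.8% in the windows and 2.87% in the rest, while pseudogenes take 30.7% and 2.70% of the bases.

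By gene rather than by peak, 207 of 2275 protein-coding genes of the windows (9.10%) had a peak of OE3-1, against 16.3% in the rest and 15.7% over all protein-coding genes. OE9-1 had a peak in 4.22% of the protein-coding genes of the windows and 5.36% of those in the rest, with 5.26% over all. OE17-4 had a peak in 8.04% and 9.32%, with 9.22% over all. Of the 3440 pseudogenes of the windows, 25 had an OE3-1 peak (0.727%, against 3.99% in the rest and 1.67% over all). For OE9-1 there were 57 (1.66% against 2.21%, with 1.82% over all), and for OE17-4 there were 244 (7.09% against 6.06%, with 6.79% over all). The exact 95% intervals of the windows and the rest overlapped in OE9-1 and OE17-4, and did not overlap in OE3-1.

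Peaks of at least 2 lines were found in 45 protein-coding genes of the windows (1.98%, against 3.32% in the rest and 3.21% over all protein-coding genes). Among protein-coding genes with a peak of any line, these made up 10.3% in the windows and 12.1% in the rest. Peaks of all 3 lines lay in 5 genes of the windows, which were SAR1, AT1G35350, MLO9, HEN2 and NAD-ME1. They were 0.220% of the protein-coding genes of the windows, against 46 genes or 0.183% in the rest and 0.186% over all. SAR1 (AT1G33410) encodes the nucleoporin NUP160 of the nuclear pore. Its peak held 256 reads in OE3-1 (chromosome 1, 12115348 to 12115413), 312 reads in OE9-1 (12110000 to 12110097) and 125 reads in OE17-4 (12118535 to 12118651), so the 3 lines marked separate positions of 1 gene.

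In AT1G35350 the 3 peaks lay side by side. OE3-1 had 167 reads at 12980945 to 12981012 of chromosome 1 and OE17-4 had 110 reads at 12980879 to 12981013, with 68 bp shared. The OE9-1 peak, with 240 reads at 12981068 to 12981132, began 56 bp beyond the OE3-1 peak. HEN2, an RNA helicase that works with the nuclear exosome in RNA decay, had OE3-1 peaks of 274 reads and 220 reads. The OE3-1 peak of 220 reads (chromosome 2, 2899327 to 2899414) shared 48 bp with an OE9-1 peak of 289 reads, and an OE17-4 peak of 96 reads lay 719 bp from the OE9-1 peak.

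MLO9, a membrane protein of the family named for barley mildew resistance, held 166 reads in OE3-1, 190 in OE9-1 and 62 in OE17-4. NAD-ME1, a mitochondrial malic enzyme that uses NAD, held 223, 217 and 97. In both genes the peaks of the 3 lines did not overlap. No peak in these 5 genes reached 5 times the median reads of its list.

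Genes with peaks of 2 lines in the windows had a range of roles. ACC1, the acetyl-CoA carboxylase that makes malonyl-CoA for fatty acid elongation, carried 3 OE3-1 peaks of 195, 231 and 266 reads and 1 OE17-4 peak of 248 reads. ELF8, a subunit of the Paf1 complex that acts with RNA polymerase II and is needed for normal flowering time, held 165 reads in OE3-1 and 328 in OE17-4. FIP1, an interactor of the flowering regulator FRIGIDA, held 202 reads in OE3-1 and 253 and 310 reads in 2 OE9-1 peaks. In each of these genes the peaks of different lines lay apart.

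Among genes for DNA replication and repair, EMB2775, the replication factor C subunit RFC3, held 345 reads in OE3-1 and 268 in OE9-1. The 2 peaks shared 37 bp (chromosome 5, 9824858 to 9824950 and 9824823 to 9824894). The RecQ helicase gene RECQSIM held 213 reads in OE3-1 and 185 in OE17-4 at separate positions. HK2, the cytokinin receptor AHK2, had OE3-1 peaks of 240 and 243 reads and an OE17-4 peak of 122 reads 63 bp from the first of them. MIRO1, a GTPase of the mitochondrial outer membrane, had OE3-1 peaks of 175 and 185 reads and an OE17-4 peak of 184 reads.

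Pseudogenes with peaks of 2 lines numbered 5 in the windows (0.145%, against 0.570% in the rest and 0.268% over all), and none had peaks of all 3. They were AT2G07677 and AT2G07682, described with the insertion of chromosome 2, and AT2G11780, AT5G30269 and AT5G35205, whose peaks held 118 to 270 reads.

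Peaks of different lines seldom overlapped in the windows. By at least 1 bp, 3 of 278 OE3-1 window peaks (1.08%) were overlapped by an OE9-1 peak, against 0.574% in the rest and 0.6% over the whole list. As a share of the OE9-1 list, the same 3 pairs were 0.440% of window peaks, against 0.951% in the rest and 0.857% over the list. OE17-4 overlapped 3 OE3-1 window peaks (1.08%, against 1.35% in the rest and 1.33% over the list), which were 0.469% of OE17-4 window peaks, against 2.44% in the rest and 2.07% over the list. OE9-1 and OE17-4 also shared 3 overlaps, or 0.440% of OE9-1 window peaks against 0.229% in the rest and 0.268% over the list, and 0.469% of OE17-4 window peaks against 0.251% in the rest and 0.292% over the list.

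The overlaps of OE3-1 with OE9-1 were those in HEN2 and EMB2775 and one of 25 bp in distal sequence that the lists name after AT5G28050, a guanosine deaminase gene (chromosome 5, 10047660 to 10047782 with 189 reads and 10047758 to 10047881 with 190 reads). Those of OE3-1 with OE17-4 lay in AT1G35350, in AT3G29170 (37 bp, 217 and 103 reads) and in CAT3, a cationic amino acid transporter (37 bp, 205 and 109 reads). OE9-1 and OE17-4 overlapped beside AT3G43670 (69 bp, 292 and 95 reads) and in distal sequence of chromosome 3 (43 bp, 237 and 248 reads). The remaining overlap of this pair, on chromosome 5, had the most reads of any window peak in both lists and is described with the most-read peaks.

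Within 1 kb, 24 of 640 OE17-4 window peaks had an OE3-1 peak (3.75%, against 13.0% in the rest and 11.3% over the list). For OE9-1 window peaks near an OE3-1 peak the share was 2.05%, against 7.37% in the rest and 6.4% over the list. Between OE9-1 and OE17-4 the shares were alike in both parts: 5.57% of OE9-1 window peaks against 5.31% in the rest, with 5.36% over the list. As shares of the other list, they were 5.94% of OE17-4 window peaks against 5.71% in the rest, with 5.75% over the list. Of OE3-1 window peaks, 5.04% lay within 1 kb of an OE9-1 peak, against 4.67% in the rest and 4.69% over the list, and 8.63% within 1 kb of an OE17-4 peak, against 7.32% and 7.39%. OE3-1 itself has few peaks per Mb in the windows, and the part of that density in these shares was not tested.

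The typical window peak had no more reads than a peak elsewhere. The median was 206 reads in the windows and 210 in the rest of OE3-1, 156 and 209 in OE9-1, and 129 and 137 in OE17-4. The log2 ratio of medians was -0.03, -0.42 and -0.09, with a mean of -0.18 ± 0.21 (SD, n = 3 lines, exact sign-flip permutation p = 0.25), and without OE9-1 it was -0.06. In OE9-1 the median also differed between classes of sequence, and the part of the class mix in its lower window median was not tested. OE9-1 window peaks had a median of 221.5 reads in protein-coding genes and 144.5 in distal sequence, against 235 and 181 in the rest. Within 1 kb of a protein-coding gene it was 150 against 195, and in pseudogenes 157.5 against 215. In RNA genes, with 5 window peaks, it was 262 against 219. OE3-1 peaks had a median length of 61.5 bp in the windows and 61 bp in the rest, OE9-1 peaks 87 and 77 bp, and OE17-4 peaks 140 and 136 bp. Shorter than a 36 bp read were 35 window peaks of OE3-1 (12.6%, against 13.1% in the rest and 13.1% over the list), 68 of OE9-1 (9.97%, against 8.59% and 8.84%) and 1 of OE17-4 (0.156%, against 0.0359% and 0.0584%).

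At the other end of the range, nearly all peaks with very many reads lay in the windows. A peak was counted here when it held at least 5 times the median reads of its own list, which was 1050 reads in OE3-1, 1010 in OE9-1 and 680 in OE17-4. All 4 such peaks of OE3-1, 18 of 20 of OE9-1 and 10 of 11 of OE17-4 lay in the windows, or 32 of 35 (91.4%). Their share among window peaks was 1.44% in OE3-1 (exact 95% interval 0.393 to 3.64%), against 0 of 5054 in the rest (up to 0.0730%) and 0.075% over the list. In OE9-1 it was 2.64% (1.57 to 4.14%), against 0.0656% in the rest and 0.536% over the list. In OE17-4 it was 1.56% (0.752 to 2.85%), against 0.0359% in the rest and 0.321% over the list. The difference was 1.85 ± 0.63 percentage points (SD, n = 3 lines, exact sign-flip permutation p = 0.25).

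The share depended on where the line was drawn. The window peaks just below the threshold held 910 reads in OE3-1, 911 in OE9-1 and 664 in OE17-4. Of the 1% of each list with the most reads, 9.43% lay in the windows in OE3-1, 64.9% in OE9-1 and 55.9% in OE17-4. The concentration in the windows thus concerns the few most-read peaks of OE3-1, and a longer list in OE9-1 and OE17-4. The 5 most-read window peaks held 36.8% of all window peak reads in OE3-1, 17.2% in OE9-1 and 17.9% in OE17-4, against 0.337%, 1.22% and 4.12% for the 5 most-read peaks of the rest.

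**Figure D4:**
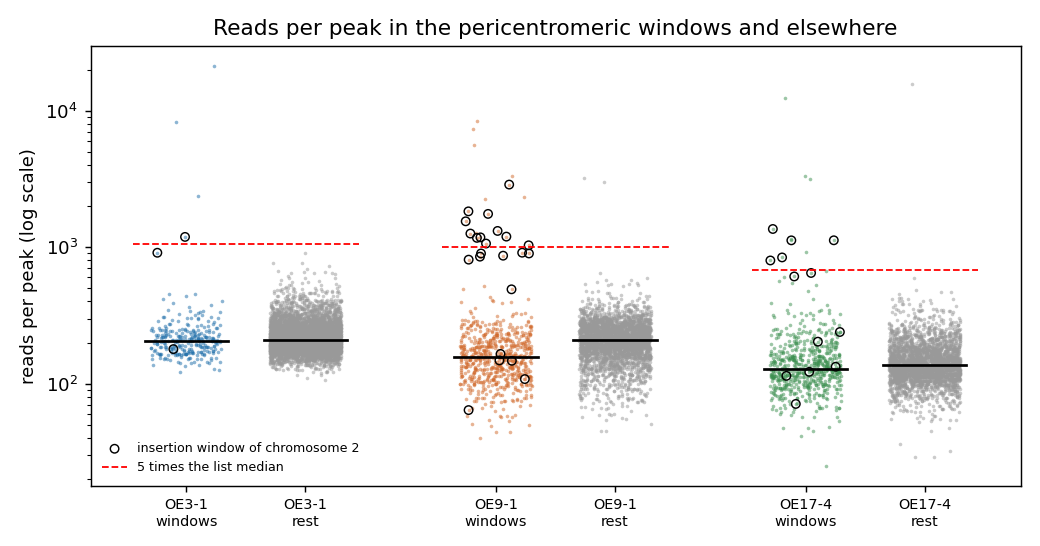
Reads per peak (log scale) in the windows (coloured points) and in the rest (grey points) of each line, with medians as black bars, 5 times the list median as a dashed line, and circles around peaks of the insertion window of chromosome 2. Above the dashed line lie 4, 18 and 10 window peaks and 0, 2 and 1 peaks of the rest in OE3-1, OE9-1 and OE17-4.

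The 32 peaks lay in distal sequence (12), pseudogenes (12), protein-coding genes (5), RNA genes (2) and within 1 kb of a protein-coding gene (1). In OE3-1 the most-read peak held 21288 reads, 101 times the list median, in pseudogene AT3G33002 of chromosome 3 (13538215 to 13538355, FDR 0.05%). A second peak in the nearby pseudogene AT3G32990 held 2383 reads over 23 bp (13536477 to 13536500, FDR 4.76%). Pseudogene AT2G07600 of chromosome 2 held 8198 reads over 20 bp (3189331 to 3189351). None of the 4 OE3-1 peaks of this kind had a peak of another line within 1 kb.

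In OE9-1 and OE17-4 the most-read peaks of the windows lay together on chromosome 5, in distal sequence. The OE9-1 peak at 11709106 to 11709157 held 8349 reads (41.3 times the list median, FDR 1.14e-11%), and the OE17-4 peak at 11709111 to 11709260 held 12312 reads (90.5 times, FDR 1.28e-50%). They shared 47 bp. OE9-1 had 4 further peaks of this kind nearby, with 3301 reads at 11706588 to 11706969, 2319 at 11754504 to 11754791, 5599 at 11755133 to 11755496 and 2237 at 11822116 to 11822329. OE17-4 had 3175 reads at 11822757 to 11823189, which lay 428 bp from the last of these, and 3331 at 12062646 to 12062841. No OE3-1 peak of this kind lay on chromosome 5, where its most-read window peak held 365 reads in AT5G35100.

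The other peaks of this kind outside chromosome 2 each belonged to 1 line. OE9-1 had 7356 reads over 28 bp in AT1G40104 of chromosome 1 (15082052 to 15082079, FDR 5.35e-12%) and 1265 reads in pseudogene AT1G34680. OE17-4 had 1155 reads in pseudogene AT4G06477 of chromosome 4 (3061283 to 3061388) and 929 in distal sequence of chromosome 3 (13596533 to 13596682). Elsewhere in the genome the lists held 3 such peaks, with 3198 reads in SK32 and 3007 beside AT2G24625 in OE9-1, and 15690 over 22 bp in AT5G10340 in OE17-4. Shorter than a read were 2 of the 4 peaks of this kind in OE3-1, 4 of the 20 in OE9-1 and 1 of the 11 in OE17-4, beside the shares of short peaks over each list given above. Forward and reverse reads differed by a median 0.11 of all reads in a peak in OE3-1, 0.045 in OE9-1 and 0.06 in OE17-4. Over all window peaks of these lists the medians were 0.11, 0.11 and 0.08. The OE17-4 peak of 929 reads had a difference of 0.37. Whether the reads of these peaks were also abundant in the inputs was not tested. How reads that match several places of the genome were placed is not given. The reads of a peak can therefore not be tied to its stated position alone.

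In the remaining windows the most-read peak stayed below 5 times the list median. In OE3-1 it held 450 reads on chromosome 1, in HON5, a chromatin protein gene of the high mobility group A family (17974280 to 17974338, FDR 0.00133%), and 334 reads on chromosome 4, in AT4G08210. In OE9-1 it held 494 reads in distal sequence of chromosome 3 and 399 in AT4G04750 of chromosome 4. In OE17-4 it held 605 reads in distal sequence of chromosome 1, or 4.45 times the list median. By FDR rather than reads, the OE3-1 window peak with the lowest value was one of 439 reads in AT2G04520 (chromosome 2, 1574720 to 1574815, FDR 5.78e-06%). Another of the 3 lowest was one of 185 reads in AT3G06365, an RNA gene (chromosome 3, 14201540 to 14201626, FDR 0.00146%), which the list names after the ribosomal RNA gene AT3G41979. No window peak had its midpoint in an annotated ribosomal RNA gene.

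The mitochondrial insertion was sought in a window of chromosome 2 from 3.2 to 3.6 Mb, called the insertion window here. In it the gene table lists 101 protein-coding genes, 62 pseudogenes and 51 RNA genes, 23 of them for transfer RNAs. The ends of the insertion were not determined. Insertion peaks, those with a midpoint in this window, may thus include peaks in other nuclear sequence. The OE9-1 list held 23 peaks there, or 57.5 per Mb, against 29.1 per Mb in the other 4.6 Mb of the chromosome 2 window. OE17-4 held 13 peaks (32.5 per Mb, against 27.0) and OE3-1 held 3 (7.5 per Mb, against 8.70). Reads per peak differed more than peak number. The median was 910 reads in OE3-1, 911 in OE9-1 and 610 in OE17-4, against 219.5, 152.5 and 127 in the rest of the chromosome 2 window, or 4.33, 4.51 and 4.49 times the list median.

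Of the 32 window peaks with very many reads, 17 lay in the insertion window: 1 of OE3-1, 11 of OE9-1 and 5 of OE17-4. In the rest of the chromosome 2 window there was 1 in OE3-1, the peak in AT2G07600 close to the edge of the insertion window, and none in the other two lines. The insertion window held 2.47% of the reads in peaks of the 5 windows in OE3-1, 14.1% in OE9-1 and 6.20% in OE17-4. It held 1.08%, 3.37% and 2.03% of those peaks. Reads of 36 bp from the organelle genome and from its nuclear copy cannot be told apart in these lists.

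Most of the insertion peaks with many reads lay in an inner stretch of the insertion window, mainly before its centre. Between the genes ABCI5 and AT2G07741, limits chosen after the values were seen so that the split below is a description only, all peaks held at least 2.43 times their list median. The 2 OE3-1 peaks held 910 and 1189 reads, the 17 OE9-1 peaks 491 to 1830 reads (median 1063), and the 7 OE17-4 peaks 610 to 1359 reads (median 841). From the centre of the insertion window, these OE9-1 peaks lay at -142 to -4.33 kb and these OE17-4 peaks at -138 to 37.3 kb. The 2 OE3-1 peaks lay at -103 and 98.1 kb. Outside this stretch, the 1 OE3-1 peak held 179 reads, the 6 OE9-1 peaks 64 to 2875 reads (median 147.5) and the 6 OE17-4 peaks 71 to 239 reads (median 127.5). The value of 2875 belonged to pseudogene AT2G07635 (3217188 to 3217232), and without it the OE9-1 peaks there lay at or below 165 reads. The OE3-1 peak of 179 reads lay in MCM5, a subunit of the helicase that unwinds DNA in replication.

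**Figure D5:**
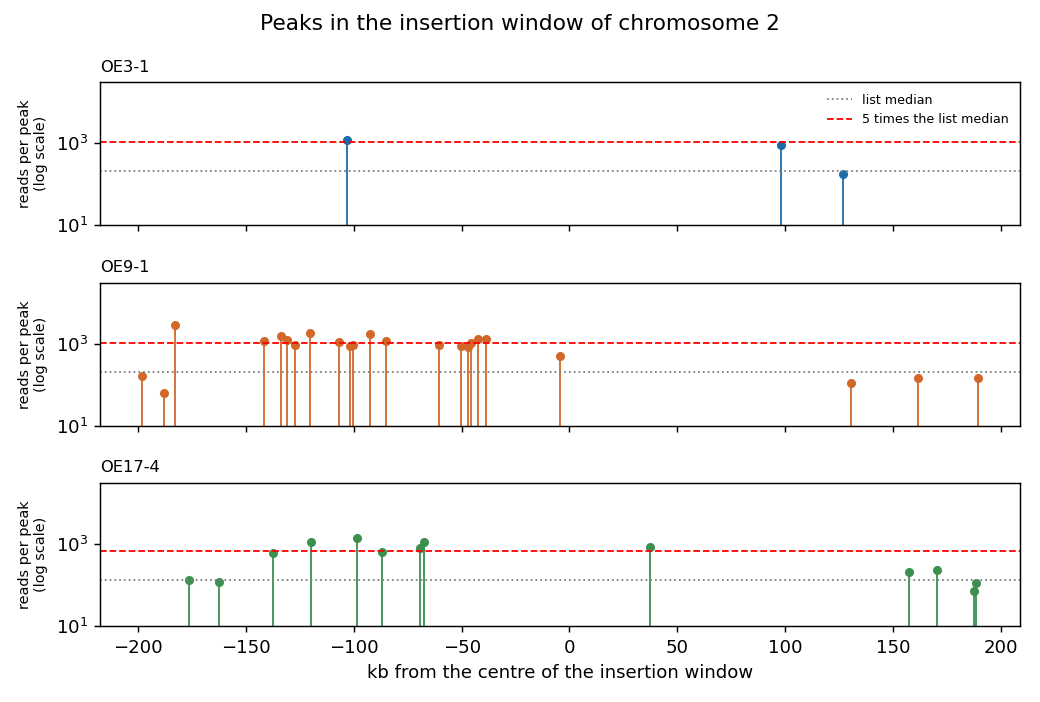
Reads per peak (log scale) along the insertion window of chromosome 2 for each line, by distance in kb from the centre of the window; the dotted line is the list median and the dashed line 5 times that. Peaks between ABCI5 and AT2G07741, most of them before the centre, stand at 491 to 1830 reads. With the exception of the 2875 reads of OE9-1, the peaks outside this stretch stand at 64 to 239.

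In OE3-1 the most-read insertion peak lay where pseudogene AT2G07682 and protein-coding gene AT2G07626 overlap (3296813 to 3296853, 1189 reads), and the next lay in AT2G07662 (3498031 to 3498072, 910 reads). After AT2G07635, the most-read OE9-1 peaks held 1830 reads in AT2G07677 (3279829 to 3279915), 1753 in distal sequence (3307502 to 3307525) and 1547 within 1 kb of a protein-coding gene (3266303 to 3266367). The next were 1315 in AT2G07697 (3357370 to 3357416), 1258 in AT2G07826 (3361370 to 3361461), 1195 in the transfer RNA gene AT2G07745 (3268808 to 3268897), 1180 in distal sequence (3314968 to 3315031), 1170 in AT2G07672 (3258222 to 3258246) and 1063 in AT2G07682 (3292957 to 3292985). Of these 10 peaks, all but that in AT2G07635 held between 1063 and 1830 reads.

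In OE17-4 the most-read insertion peak held 1359 reads in AT2G07772 (3301565 to 3301678), followed by 1123 in AT2G07677 (3279935 to 3280012), 1122 in the RNA gene AT2G05195 (3332581 to 3332653), 841 in distal sequence (3437279 to 3437317) and 799 in AT2G07633 (3330859 to 3330929). The 5 remaining of the 10 most-read held 647, 610, 239, 203 and 133 reads. No peaks of different lines overlapped in the insertion window. The closest pair was in AT2G07677, where the OE9-1 and OE17-4 peaks lay 20 bp apart, and AT2G07682 held peaks of OE3-1 and OE9-1 at separate positions.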

How the data were processed

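Reads per peak are whole-number counts as deposited, with their forward and reverse parts, per the file headers; the authors also give each peak an FDR in percent, the strand difference as a fraction of reads, a Wilcoxon filter p-value and a length. The build is TAIR10, per the submitters' processing notes; the sources used here name no aligner or peak caller. Each list holds the peaks of 1 ChIP library; whether its input was used is not given. Regions listed more than once within a list (1 in OE3-1, 2 in OE9-1 and 2 in OE17-4) were counted once, 1 empty row of OE9-1 was dropped, and 18 rows whose positions are written with 3 dots, none in the windows, were kept.

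Midpoints were classed against nuclear genes of the RefSeq table of TAIR10.1, first protein-coding genes, then pseudogenes, RNA genes, flanks of up to 1 kb around protein-coding genes and distal sequence. With the peaks moved by 20000 bp the share of OE3-1 window peaks in protein-coding genes was 34.5 to 36.0%, against 79.9% in place; it was 21.8 to 22.1% against 14.1% in OE9-1 and 16.9 to 18.0% against 28.6% in OE17-4. The share in pseudogenes was 18.0 to 21.9% moved and 8.27% in place in OE3-1, 28.2 to 29.3% and 8.21% in OE9-1, and 30.0 to 34.4% and 39.8% in OE17-4. No coordinates of the gene table are printed. Chromosome lengths were taken up to the last gene or peak (119 Mb in all). No genome sequence was used.

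Lines were the replicates (n = 3). Differences between the windows and the rest were compared over lines with an exact 2-sided sign-flip permutation test; intervals are exact 95% binomial (Clopper-Pearson) or Poisson. Peaks named are, per line, the 5 with the most reads and the 3 with the lowest FDR, the most-read peak of each chromosome, up to 10 insertion peaks, peaks overlapped by another line, and genes with peaks of at least 2 lines, of which examples are given. The peaks, windows and rules were chosen with earlier results of these data known. Python 3.11.15, pandas 2.3.3, numpy 2.4.6, scipy 1.17.1 and matplotlib 3.10.9 were used, and the scripts were tested on simulated data.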

Additional observations from a re-analysis of the deposited data

How the results depend on the processing

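Of 183 values recomputed under alternatives, 158 were counted as unchanged, 25 moved and 0 changed sign. A mean over lines counted as unchanged when it kept its sign, whatever its size, and a value of 1 line when it stayed within its limits. A change of direction within 1 line was not scored. The cause of a move was not tested unless the alternative itself changes the sequence or peaks counted. With windows narrowed by 0.5 Mb at each end, they held 2.89%, 13.5% and 15.1% of the peaks of OE3-1, OE9-1 and OE17-4, with 73.4%, 11.1% and 21.1% of window peaks in protein-coding genes and, for OE17-4, 44.8% in pseudogenes. Widened by 0.5 Mb, they held 7.97%, 23.7% and 22.4%, with 34.5% of OE17-4 window peaks in protein-coding genes. Both changes also alter the share of chromosome length in the windows. Per Mb, the mean log2 ratio of density over lines was -1.15 with narrowed and -0.80 with widened windows. Among peaks with an FDR up to their list's median, the OE17-4 median was 158 reads and 0% of OE3-1 window peaks were overlapped by OE17-4. Under a common Wilcoxon limit of 9.99e-05, the insertion window held 0.244% of OE3-1 and 1.91% of OE9-1 peaks. Under the same limit the windows held 23.4% of OE9-1 peaks, above the share of the windows in length. This reversal was not tested against counting error. Of these OE9-1 window peaks, 10.9% lay in protein-coding genes and 5.45% in pseudogenes, and 0% of OE3-1 window peaks were overlapped by OE9-1. The limit leaves 1231 peaks of OE3-1, 471 of OE9-1 and 3425 of OE17-4. Of the 1% of peaks with the most reads, 9.43%, 64.9% and 55.9% lay in the windows. With midpoints within 500 bp as the criterion, OE9-1 shared 3.24% and OE17-4 5.04% of OE3-1 window peaks, and OE17-4 shared 1.47% of OE9-1 window peaks. Leaving out each line in turn, the mean log2 density ratio lay between -1.30 and -0.27, the mean log2 ratio of median reads between -0.25 and -0.06, the difference in protein-coding share between -42.4 and -19.7 points and that in pseudogene share between 7.26 and 22.1 points. The limits of the insertion from ABCI5 to AT2G07741 were chosen after seeing the data. No paired analysis was possible because the samples that share a number with the ChIP libraries are the inputs, which were not analysed here; the windows and the rest of 1 line are paired in the sign-flip tests. The unknown library depth limits all comparisons of reads to 1 list.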

Other observations

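The median gap between neighbouring peaks of 1 list was longer in the windows than in the rest, at 30.7 kb in OE3-1, 22.1 kb in OE9-1 and 26.3 kb in OE17-4, against 10.6, 20.6 and 23.5 kb. Gaps of up to 1 kb differed in the same way in OE3-1, with 6 of 273 in the windows (2.20%) against 296 of 5049 in the rest (5.86%). In OE9-1 they were 16 of 677 (2.36%) against 77 of 3046 (2.53%), and in OE17-4 12 of 635 (1.89%) against 48 of 2781 (1.73%). Strand difference, the gap between forward and reverse reads as a fraction of the reads of a peak, had a median of 0.11 in the windows and 0.11 in the rest of OE3-1, 0.11 and 0.08 in OE9-1, and 0.08 and 0.07 in OE17-4. The median deposited FDR was 2.41% in the windows and 2.35% in the rest of OE3-1, 2.64% and 2.74% in OE9-1, and 1.00% and 1.095% in OE17-4.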
